A study of Homo sapiens with 24 samples.

Results

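The immunoglobulin genes are the V, J and C gene segments of the IGK locus on chromosome 2, the IGH locus on chromosome 14 and the IGL locus on chromosome 22. Every V, J and C gene that GENCODE version 44 places on these chromosomes of hg38 was taken, which gave 164 genes: 132 V, 18 J and 14 C genes. Of the 2615 super-enhancers listed in OCI-Ly7 cells, 15 lay within 50 kb of at least 1 of these genes, with 5 at IGK, 3 at IGH and 7 at IGL. OCI-Ly7 is a cell line from a germinal centre B-cell-like diffuse large B-cell lymphoma. CUT&RUN, in which a tethered nuclease releases the DNA next to a histone mark, was performed for H3K27ac, H3K4me1 and H3K4me3 in WT cells, in cells labelled C_hom_KI with a homozygous CREBBP knock-in, in cells labelled K_hom_KO with a homozygous KMT2D knock-out and in cells labelled CK_hom_KI_KO with both, with 2 samples for each mark and genotype. The edited lines were grown from single cells, and the paper describes the WT cells as control clones that were not edited. The super-enhancer table rests on H3K27ac in WT cells alone, with the 2 WT samples combined into 1 value per region, so the values below have no replicate error, no test was possible, and the other 22 samples were not analysed here.

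An antibody is made of heavy chains from IGH and light chains from IGK or IGL. In each locus a developing B cell joins 1 of many V segments to a J segment, with a D segment between them in IGH, upstream of the C segment that encodes the constant region. H3K27ac marks active promoters and enhancers, and the name super-enhancer is given to clustered H3K27ac peaks whose summed signal is high. The best known immunoglobulin enhancers lie in the introns between J and C genes and downstream of the C genes, while each V gene has its own promoter with an octamer that binds the OCT1 and OCT2 factors. All positions are those of the reference genome. Which stretches of these loci remain in OCI-Ly7 cells, and in what rearranged order, was not determined here.

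The octamer was searched as ATGCAAAT on both strands, that is also as ATTTGCAT, from 250 bases before to 50 bases after the annotated start of each V gene. The windows below, on the strand of the gene in hg38, show it in capitals with 40 bases before and 30 bases after. They are examples, taken from V genes with a match that a super-enhancer covered or ended next to. Of the 25 V genes that a super-enhancer overlapped, 19 had a match. Of the 27 immunoglobulin genes under a super-enhancer, 25 were V genes, as were 132 of all 164.
IGHV3-20, chr14:106211488-106211565, minus strand: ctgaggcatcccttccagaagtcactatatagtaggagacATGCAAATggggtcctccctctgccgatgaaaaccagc
IGHV1-18, chr14:106185401-106185478, minus strand: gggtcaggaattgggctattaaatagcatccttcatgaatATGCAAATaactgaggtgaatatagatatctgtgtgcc
IGKV5-2, chr2:88897146-88897223, plus strand: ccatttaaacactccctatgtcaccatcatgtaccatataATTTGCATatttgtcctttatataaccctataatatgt
IGKV2D-40, chr2:89851611-89851688, plus strand: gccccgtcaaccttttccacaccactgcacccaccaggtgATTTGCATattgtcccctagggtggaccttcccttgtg
IGLV8-61, chr22:22098603-22098680, plus strand: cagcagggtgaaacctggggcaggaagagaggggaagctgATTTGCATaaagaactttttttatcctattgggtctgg
IGLV4-60, chr22:22162060-22162137, plus strand: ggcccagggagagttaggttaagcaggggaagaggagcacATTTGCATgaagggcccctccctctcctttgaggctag
IGLV1-47, chr22:22357645-22357722, plus strand: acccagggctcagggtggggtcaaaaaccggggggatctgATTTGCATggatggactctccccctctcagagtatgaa
IGLV4-3, chr22:22871383-22871460, plus strand: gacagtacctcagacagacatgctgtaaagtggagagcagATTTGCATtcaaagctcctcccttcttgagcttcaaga
The octamer read ATGCAAAT in both IGH windows and ATTTGCAT in the 6 light chain windows. The same split held for all V promoters with a match, with 43 of 43 IGH promoters in the first form and 59 of 59 light chain promoters in the second.

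Of the 164 immunoglobulin genes, 84 (51.2%) had a super-enhancer within 50 kb, against 30.7% of the 19970 protein-coding genes. A super-enhancer overlapped 27 of them (16.5%), against 17.3% of protein-coding genes. Overlap was counted with the whole region, including the stretches between its peaks. Listed peaks made up 6.15% to 21.0% of the length of the 15 regions. Their width was nearly fixed, so this share follows the number of peaks and does not measure how broad the mark was. Whether an overlapped gene lay under a peak was not determined. The loci differed widely. IGL had 47 of 48 genes within 50 kb (97.9%), where 65.5% of the protein-coding genes of chromosome 22 were. IGK had 18 of 52 (34.6%), with 24.9% of the protein-coding genes of chromosome 2. IGH had 19 of 64 (29.7%), with 36.0% of the protein-coding genes of chromosome 14. Neighbouring segments share a super-enhancer, so these counts are not independent observations and carry no interval. As an annotation of the same build that B cells do not rearrange, the T-cell receptor genes had 102 of 197 within 50 kb (51.8%), a share near that of the immunoglobulin genes.

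The segment classes differed in place. All 18 J genes had a super-enhancer within 50 kb and 0 were overlapped. Of the 14 C genes, 10 lay within 50 kb and 2 were overlapped, IGHG1 and IGHG3. Of the 132 V genes, 56 (42.4%) lay within 50 kb and 25 (18.9%) were overlapped, 21 of them in IGL. The overlapped share of all protein-coding genes was 17.3%. V pseudogenes, which cannot encode a chain, had 65 of 166 (39.2%) within 50 kb. The D genes of IGH had 1 of 27 within 50 kb but 27 of 27 within 100 kb, and all 14 C genes lay within 100 kb. Of all protein-coding genes, 30.7% lay within 50 kb and 39.7% within 100 kb. The J genes of each locus had the same nearest super-enhancer, so their count stands for few placements.

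**Figure D1:**
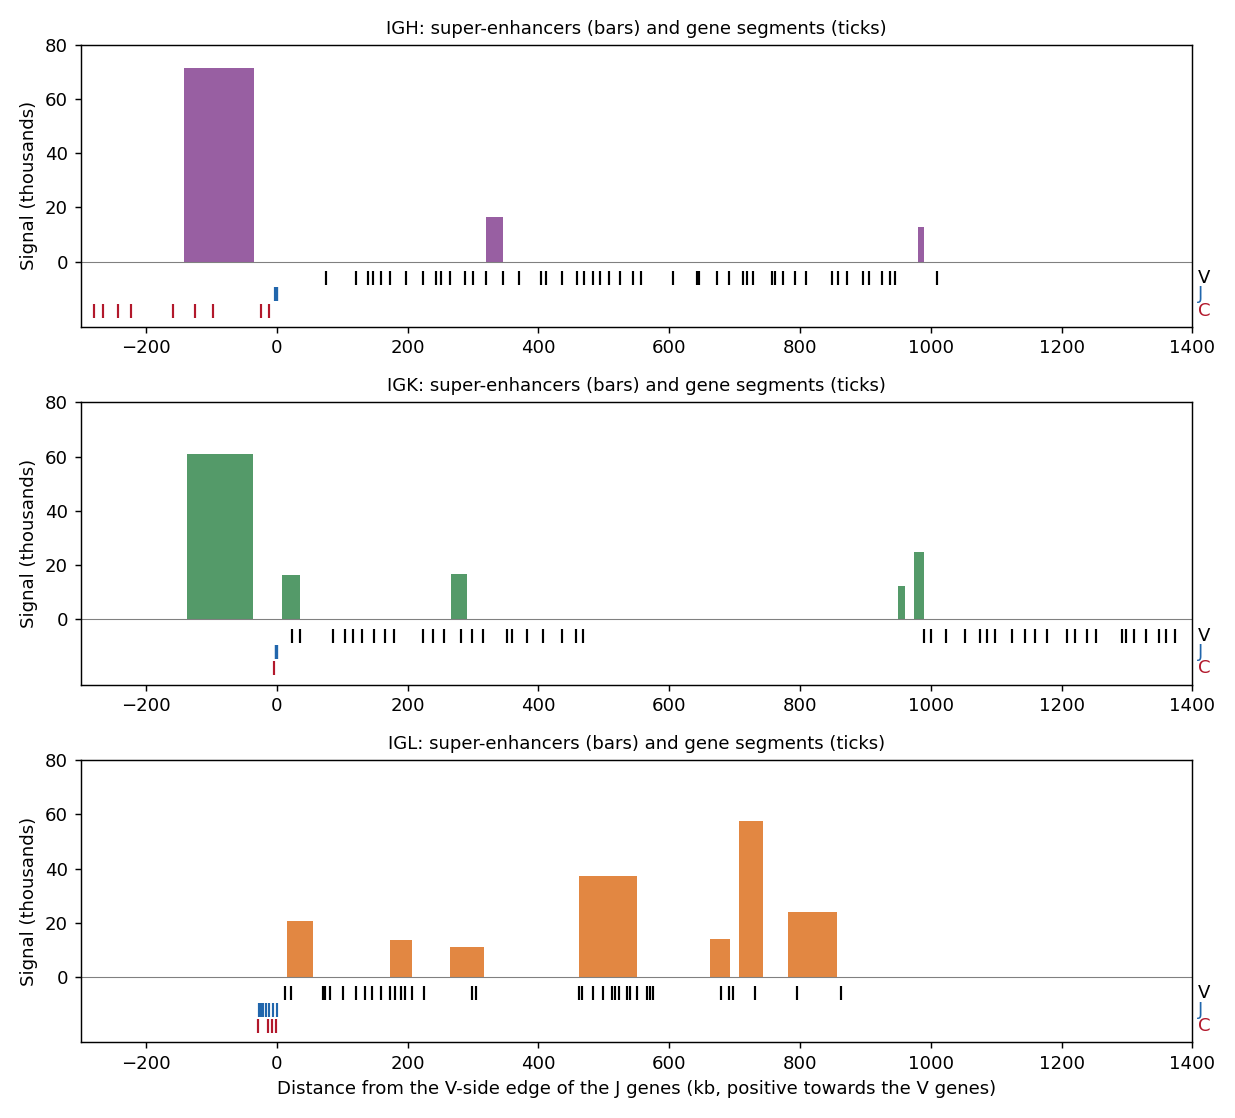
Super-enhancers at IGH, IGK and IGL, drawn by distance from the V-side edge of the J genes in kb, with the height of each bar giving the H3K27ac signal (axis in units of 1000) and its width the stitched length. Ticks mark V, J and C genes. IGH and IGK have their strongest region on the C side of the J genes, at 71229 and 60935, while the 7 IGL regions all lie among the V genes.

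At IGH the strongest super-enhancer covered 2 of the 9 constant genes. It ran over chr14:105723268-105830638, 107.4 kb built from 20 peaks, and had a signal of 71229, rank 83 of 2615 and 6.71 times the cutoff. It held the whole of IGHG1 and IGHG3, which encode the constant regions of IgG1 and IgG3. The stretch from IGHG3 to its end towards IGHD, 59.2 kb, made up 55.2% of its length. It ended 6.13 kb short of IGHD, 21.1 kb short of IGHM and 32.6 kb short of IGHJ6. IGHD and IGHM encode the constant regions of IgD and IgM. Towards the other side IGHA1, the gene of the IgA1 constant region, lay 14.6 kb away. This 1 region gave 70.8% of the summed signal of 100575 at IGH.

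The other C genes of IGH had no super-enhancer nearby. IGHG2 lay 78.5 kb and IGHG4 97.2 kb from the region over IGHG1. IGHE lay 92.1 kb and IGHA2 78.1 kb from the next super-enhancer outside the locus, which overlapped CRIP1, CRIP2 and TEDC1, ranked 2151 and had a signal of 12977. The 139.5 kb on the IGHA2 side of the strong region, with IGHE, IGHG4, IGHG2 and IGHA1, contained no super-enhancer. The known 3′ regulatory regions of the heavy chain lie downstream of IGHA1, in that stretch, and downstream of IGHA2. Repeated 31-mers, which occur more than once in the genome, made up 48.5% of those sampled from IGHA2 to the J genes and 39.5% inside the strong region, against a median of 13.5% over all super-enhancers.

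The IGH V genes were sparsely covered, at 3.68% of their 935 kb. The first region there, chr14:106185863-106211071, had a signal of 16373 (rank 1651), 25.2 kb and 4 peaks. It filled the space between 2 V genes: its lower end lay 469 bases upstream of the start of IGHV1-18, and its upper end took in the last 136 of the 518 bases of IGHV3-20 and stopped 382 bases downstream of that gene's start. Neither promoter window printed above lay inside it. The second, chr14:106845323-106854557, was 9.24 kb long with 2 peaks and a signal of 12973 (rank 2153), 20 kb from IGHV7-81, the V gene farthest from the J genes. Between them 634 kb with 33 V genes had no super-enhancer, and between the strong region and the first another 355 kb with 14 V genes had none. IGHV6-1, the V gene nearest to the J genes, was 109.1 kb away from the nearest region.

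At IGK the strongest super-enhancer lay beyond the constant gene, outside the gene cluster. It ran over chr2:88724044-88825215, 101.2 kb with 25 peaks, with a signal of 60935 (rank 134), and ended 31.9 kb from IGKC, the only kappa constant gene. It was also the only 1 of the 15 to overlap a protein-coding gene. RPIA, an enzyme of the pentose phosphate pathway, took 26.9 kb (26.6%) of it, and the lncRNA ANKRD36BP2 took 40.3%. Distance alone cannot tell whether this region acts on IGKC.

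The next IGK region, chr2:88869905-88897484, began 7.98 kb from the J genes on their V side. It had 27.6 kb, 7 peaks and a signal of 16407 (rank 1645). It held IGKV4-1, the V gene nearest to the J genes, and its far edge lay inside IGKV5-2. IGKC and the J genes, which lay between this region and the stronger one, were overlapped by neither. Another region around IGKV3-20, chr2:89128704-89153315, had 24.6 kb, 4 peaks and a signal of 16832 (rank 1601). Repeated 31-mers made up 61.5% of those sampled in it, more than in any other of the 15.

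IGK holds its V genes in a pair of clusters that are inverted copies of each other, and the last 2 IGK regions lay just before the far copy on the side of the J genes. The region at chr2:89811488-89822942 had 11.5 kb, 6 peaks and a signal of 12303 (rank 2268). The region at chr2:89836326-89851777 had 15.5 kb, 4 peaks and a signal of 24904 (rank 938). It ended 14 bases from the start of IGKV2D-40, so its edge lay within the promoter window of that gene, the first V gene of the far copy. The rest of the far copy had none: 0 of its 22 V genes were overlapped and 3 lay within 50 kb, while in the cluster next to the J genes 3 of 22 were overlapped and 9 lay within 50 kb. Repeated 31-mers made up 71.0% of those sampled in the far cluster and 60.5% in the cluster next to the J genes, and 19.4% of the locus, 268 kb, is unsequenced in hg38. How the authors treated reads that map to several places is not given in the sources used here, and the part of these repeats in the low coverage was not tested.

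IGKV3OR2-268 and IGKV1OR2-108, V genes that lie outside the main locus on chromosome 2, had their nearest super-enhancers at 57.1 kb and 117.9 kb.

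At IGL the super-enhancers lay among the V genes and none lay over the J and C genes. The 7 regions covered 356 kb, 40.0% of the locus, against 11.0% at IGH and 5.74% at IGK, and 6.42% of the sequenced genome. These shares count the stretches between peaks. Listed peaks, of a fixed width, made up 6.15% to 11.8% of the length of each IGL region, which does not measure how broad the mark was. The IGK length includes 268 kb of unsequenced bases, which lowers its share and its number of regions per Mb. The genome share leaves such bases out, so 5.74% and 6.42% cannot be ranked. Counting only regions that reach into each locus, there were 7.85 per Mb at IGL, 2.90 at IGK (4 regions) and 2.32 at IGH. The summed signal of these regions was 178063 at IGL, 100575 at IGH and 70445 at IGK, and IGK came to 131380 with the region beyond IGKC added. The top region gave 32.3% of the sum at IGL and 70.8% at IGH. At IGK that share was 35.4% without the region beyond IGKC and 46.4% with it.

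The strongest IGL region, chr22:22149828-22186437, had a signal of 57549 (rank 161) in 36.6 kb and 7 peaks and held IGLV4-60. The second, chr22:22343102-22431769, had 37355 (rank 445) in 88.7 kb and 26 peaks, and held 9 V genes, more than any other of the 15: IGLV9-49, IGLV5-48, IGLV1-47, IGLV7-46, IGLV5-45, IGLV1-44, IGLV7-43, IGLV1-40 and IGLV5-37. The next, chr22:22037777-22111361, had 24047 (rank 991) in 73.6 kb and 16 peaks around IGLV8-61, at the end of the locus farthest from the J genes.

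The other 4 regions were weaker. The one around IGLV4-3, chr22:22838536-22877649, had 20566 (rank 1222) in 39.1 kb and 6 peaks, and was the nearest to the J and C genes. The one at IGLV11-55 and IGLV10-54, chr22:22200945-22231848, had 13863 (rank 1992) with 8 peaks. A region over IGLV3-25, IGLV2-23, IGLV3-22, IGLV3-21 and IGLV3-19, chr22:22686470-22720899, had 13534 (rank 2056) with 10 peaks. The one at IGLV2-33 and IGLV3-32, chr22:22576415-22629551, had 11148 (rank 2497) with 9 peaks, 1.05 times the cutoff.

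The 4 IGL C genes lay 17.7 kb (IGLC1), 23.3 kb (IGLC2), 28.7 kb (IGLC3) and 44.9 kb (IGLC7) from the IGLV4-3 region and had no other within 50 kb. The next super-enhancer past IGLC7 started 63.8 kb away, had a signal of 28531 (rank 754) and was not counted. IGLV3-12 was the only IGL gene beyond the window, at 50.9 kb. The nearest gene on the other side of the limit was IGKV1-5 in IGK, at 49.8 kb, and the closest missed gene in IGH was IGHV3-72, at 54.1 kb.

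The introns between the last J gene and the next C gene were outside the listed super-enhancers in all 3 loci. The intron of 6.98 kb between IGHJ6 and IGHM, where the heavy chain intronic enhancer is known to lie, was 25.6 kb from the strong IGH region. The 2.88 kb between IGKJ5 and IGKC were 9.34 kb from the region over IGKV4-1, and the 1.16 kb between IGLJ7 and IGLC7 were 43.8 kb from the region over IGLV4-3. The exact octamer and the kappa B motif had 0 matches in each of these introns, and the E box CAGGTG, searched on both strands, had 6 in IGH, 2 in IGK and 1 in IGL. The authors left out peaks close to a TSS before stitching, and the table lists only regions above a signal of 10617, so the lack of a listed super-enhancer does not say that H3K27ac was absent.

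The immunoglobulin super-enhancers were short and dense. Their median length was 34.4 kb against 60.7 kb over all 2615, and 11 of 15 were below the overall median. They had a median of 7 peaks against 16. Their median signal, 16832, was below the overall 19736, and 3 of 15 were among the 262 strongest. Signal per bp, the signal divided by length, had a median of 0.602 against 0.343, and 13 of 15 were above the overall median. Because length enters both quantities, a short region needs a high density to pass the cutoff, so the 2 are not independent.

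Among the 262 densest super-enhancers were 4 of the 15. They were the region next to IGKV2D-40 with 1.61 per bp (density rank 30), the one around IGLV4-60 with 1.57 (37), the one between IGHV3-74 and IGHV7-81 with 1.40 (54) and the one farther from IGKV2D-40 with 1.07 (124). The 2 longest, at IGHG1 and beyond IGKC, had 0.663 and 0.602. The regions below the overall median were the IGL regions around IGLV8-61, with 0.327, and IGLV2-33, with 0.210.

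**Figure D2:**
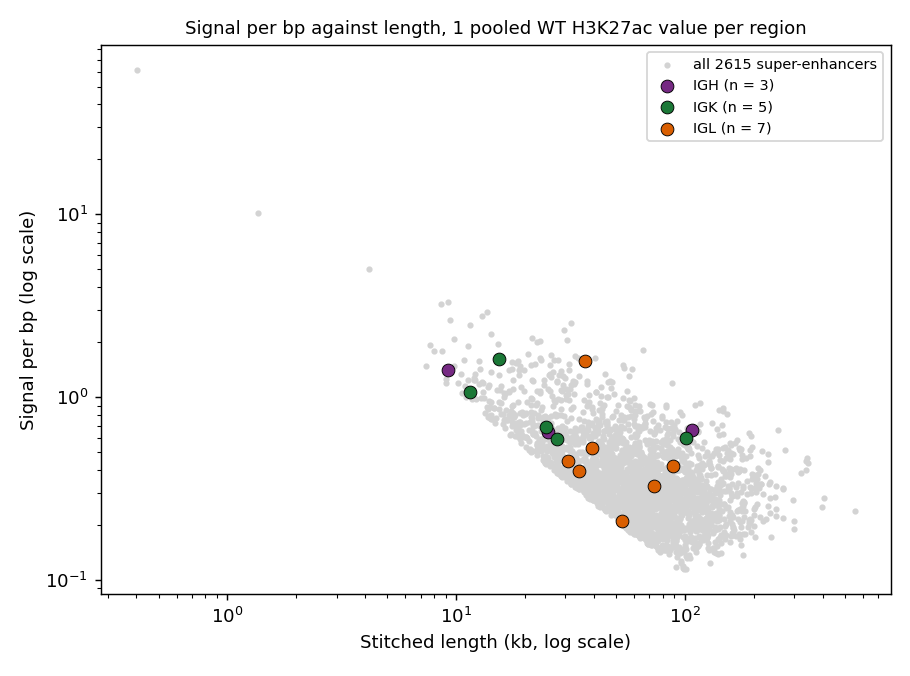
H3K27ac signal per bp against stitched length in kb, both on log scales, for all 2615 super-enhancers in grey and the 15 at the immunoglobulin loci in colour. All but 2 of the coloured points lie above the overall median of 0.343 per bp.

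IGL had the highest share of the 3 loci at each distance counted. Of its 48 genes, 43.8% were overlapped, 52.1% lay within 10 kb and 100% within 100 kb. The protein-coding genes of chromosome 22 had 34.7%, 42.5% and 75.6% at these distances, and those of the whole genome 17.3%, 20.8% and 39.7%. IGK went from 5.77% overlapped to 55.8% within 100 kb. The T-cell receptor genes went from 28.9% to 54.8%, and 46 of the 57 overlapped ones were on chromosome 14.

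**Figure D3:**
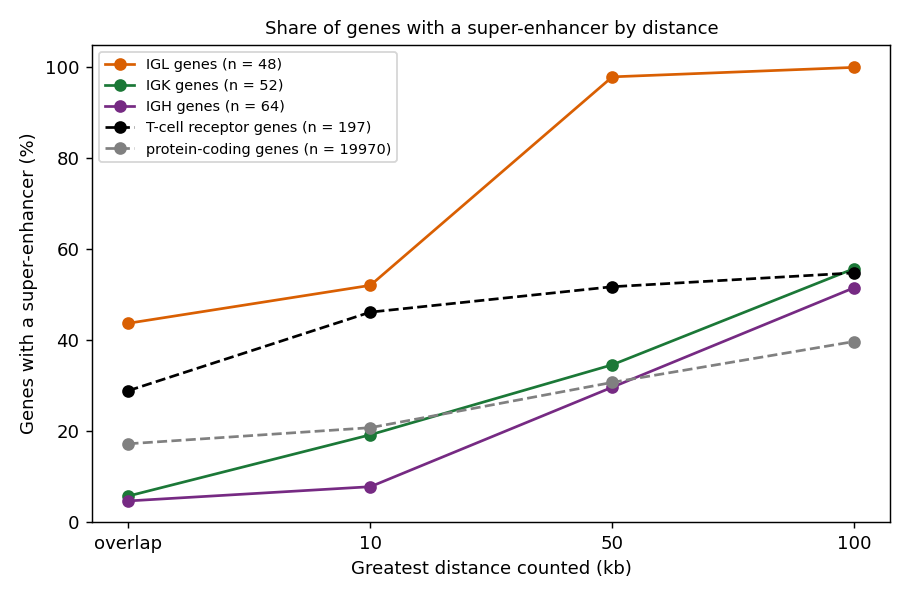
Share of genes with a super-enhancer, in percent, by the greatest distance counted in kb, for the IGL, IGK, IGH, T-cell receptor and protein-coding genes. IGL is highest at each distance and reaches 97.9% at 50 kb.

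The T-cell receptor genes had 4 super-enhancers within 50 kb, with a summed signal of 66561 against 410017 for the 15 at the immunoglobulin loci. The strongest, over the TRA J genes on chromosome 14, had 28110 (rank 769), and its neighbour over TRDD3 had 15723. The other 2, on chromosome 7, had 11533 at TRG and 11195 at TRB, where the region also overlapped the trypsinogen genes PRSS1 and PRSS2. Their median signal per bp was 0.399. With 4 regions and no replicates, this difference was not tested.

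The exact octamer was in 102 of 132 V promoters (77.3%) and in 339 of 19970 protein-coding promoters of the same length (1.70%). It was in 43 of 49 in IGH, 30 of 37 in IGL and 29 of 46 in IGK. Its median place was 54 bases before the gene start in IGH, 70 in IGK and 75.5 in IGL. The share varied little with the super-enhancers: 19 of 25 V genes that one overlapped (76.0%), 26 of 31 others within 50 kb (83.9%) and 57 of 76 beyond 50 kb (75%) had it. A super-enhancer held the whole promoter window of 23 V genes, 20 in IGL, 3 in IGK and 0 in IGH, and 17 of those had the octamer. The 3 in IGK were those of IGKV4-1, IGKV5-2 and IGKV3-20, of which IGKV5-2 had it. A promoter without a match lacks only these exact letters in this window.

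**Figure D4:**
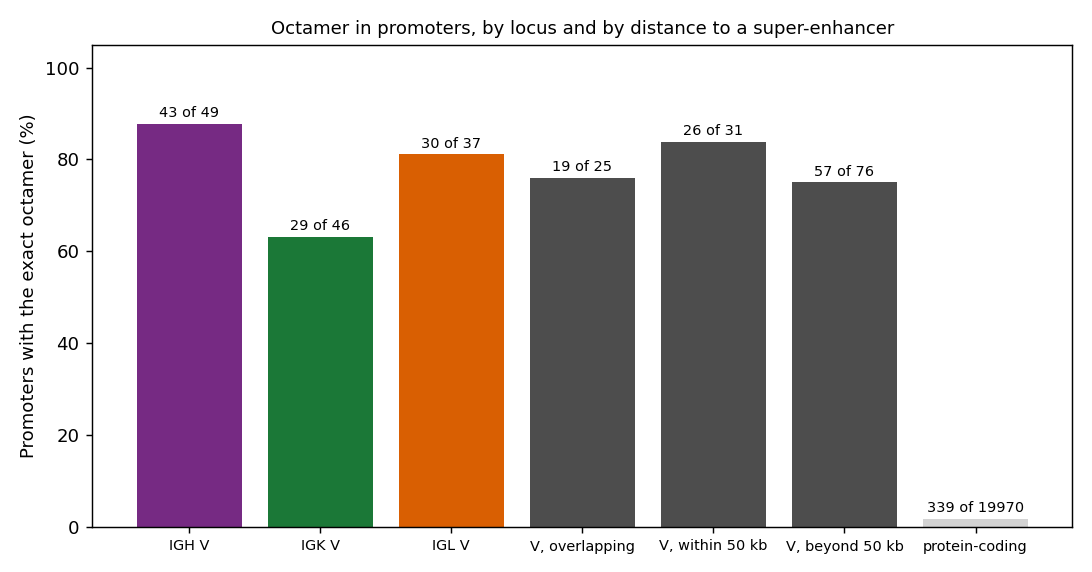
Share of promoters with the exact octamer, in percent, for the V genes of each locus, for V genes that a super-enhancer overlapped, lay within 50 kb of without overlap, or lay beyond 50 kb of, and for protein-coding genes. The numbers above the bars are the promoters with the octamer of all in the group, and every V group stands above 60% while protein-coding promoters are at 1.70%.

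Genes that work on these loci were taken from a list, of which 29 are reported. A super-enhancer lay within 50 kb of 21 of them (72.4%), beside the 30.7% of all protein-coding genes. The list was chosen with earlier results of these data known, and VPREB1 and IGLL5 count through IGL regions described above. Of 16 factors that bind immunoglobulin promoters and enhancers, 12 had one. Among them were the octamer factor POU2F2 (OCT2), with a region of signal 18135, and its partner POU2AF1, with 10964, and PAX5, which keeps B-cell identity, with 51672. EBF1, a factor of early B-cell development, had 57186, SPI1 (PU.1) had 45348 and IKZF1 (Ikaros) had 54187. These values are those of the strongest region within 50 kb. IRF8 missed the limit at 52.5 kb, and RAD21, SPIB and TCF4 had none nearby.

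Of 3 repair genes that act in somatic hypermutation or class switching, 2 had one: UNG, which removes uracil from DNA, with 34967, and MSH6, a mismatch repair gene, with 53028. TP53BP1 had none. Of the recombination genes, DNTT, which adds bases at V(D)J joints, had a region of 23220 (rank 1043), while RAG1 and RAG2, the recombinase that cuts the segments in early B cells, had none within 1000 kb.

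Of 7 light-chain-like genes and partners of the chains, 6 had a super-enhancer within 50 kb and 0 were overlapped. CD79A, a signalling chain of the B-cell receptor, had a region of 57722 (rank 159), and CD79B, the other, had one of 12356 (rank 2257). JCHAIN, which joins IgM and IgA units, had 32970 (rank 570). VPREB3 had 38287 (rank 418). VPREB1, a surrogate light chain gene inside the IGL locus, was 12.9 kb from an IGL region described above. IGLL5, whose span includes IGLJ1 and IGLC1, was 10.1 kb from another. IGLL1 had none within 50 kb.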

How the data were processed

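CUT&RUN was performed on OCI-Ly7 cells. By the methods of the paper, nf-core cutandrun was the authors' pipeline (hg38, IgG controls). SEACR called the peaks and MACS2 the summits. ROSE was run on WT H3K27ac with peaks near a TSS left out, by its default distance and with TSSs of non-coding RNAs removed. Whether the starts of V, J and C genes counted as TSSs is not stated. Whether SEACR peaks or windows around MACS2 summits were stitched is not stated there. The summed lengths are those of windows of nearly fixed width, not of peaks of measured width. The 20 peaks of the strongest IGH region summed to 8020 bases, and the 26 of the second IGL region to 10426. The region beyond IGKC departed from this, with 10426 bases for 25 peaks. The shortest listed super-enhancer was 0.401 kb long. Whether the windows were centred on MACS2 summits was not determined. Per the file headers, neighbours within 12.5 kb were stitched. The deposited signal is 1 value per stitched region for the combined WT samples. The file holds neither its scale nor read counts, and the paper gives only an approximate depth per sample, scaled to reads at promoters, so the signal was compared only within the table and no counting interval was computed. Other deposited columns hold the number of peaks, their summed length and the rank.

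Distances ran from gene body to region, with 0 for overlap. Regions were compared as descriptions, beside protein-coding and T-cell receptor genes. Repeats were measured as the share of up to 200 sampled 31-mers per region found elsewhere on either strand, after a check on simulated sequence. Promoters were cut from hg38 by GENCODE starts. Every region within 50 kb was named, as were all C genes, the V genes overlapped by a region or nearest to its edges, and 29 genes of a list of other genes, of which the rest is not reported here. The members and lists were chosen with earlier results of these data known. Alternatives were distances of 0, 10 and 100 kb, the 1307 regions of highest signal, added D genes and pseudogenes, and longer loci. Python 3.11.15, numpy 2.4.6, pandas 2.3.3, numba 0.67.0 and matplotlib 3.10.9 were used.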

Additional observations from a re-analysis of the deposited data

How the results depend on the processing

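The share of immunoglobulin genes near a super-enhancer, 51.22% within 50 kb, depended on the distance allowed. It was 16.46% for overlap alone, 24.39% within 10 kb and 67.07% within 100 kb. With the 1307 super-enhancers of highest signal it was 34.15%, and with D genes and pseudogenes added it was 42.66%. The share of T-cell receptor genes, 51.78% within 50 kb, was 28.93% for overlap alone and 32.49% with those 1307. The 5 super-enhancers at IGK became 2 for overlap alone and 3 within 10 kb. The other 12 of 21 alternatives kept a share of genes within a 95% binomial interval, or a count or covered share within 1.5 times. That interval treats neighbouring genes as independent, which they are not, and served only as a yardstick. No paired analysis was possible because the 2 WT samples were combined into 1 value per region. Leaving out a replicate was not possible for the same reason. The study's methods give an approximate depth per sample but the table holds no read counts, so what depth limits was not measured here.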
